A study of Mus musculus with 12 samples.

Results

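Haemoglobin and red cell genes were followed through mouse spinal cord as 5 rows of a table of 45906 genes: the alpha globin copies Hba-a1 and Hba-a2, the beta globin copies Hbb-bs and Hbb-bt, and Alas2. The 5 were chosen by symbol and not by a cut on measured values, though earlier results of these data were known. All 5 were among the 20155 genes with enough counts to be tested. Red cells carry oxygen on haemoglobin, a tetramer of alpha and beta globin chains that each hold a haem group, and Alas2 is the red cell form of the enzyme that starts haem synthesis. Mature mammalian red cells have no nucleus but young ones still hold globin mRNA, so whole tissue RNA that contains blood contains these transcripts. Red cell membrane and transcription factor genes such as Slc4a1, Klf1 and Gata1 mark the nucleated precursors that make the globins in marrow and spleen.

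The libraries came from spinal cords of mice aged 7 months on the C57BL/6 background, 3 mice for each of 4 genotypes. Plekhg5+/+ mice carried the intact gene for Plekhg5, a guanine nucleotide exchange factor that acts in autophagy, and Plekhg5-/- mice lacked it. The SOD1-G93A mice, with or without Plekhg5, carried in addition a human SOD1 transgene with a substitution found in familial amyotrophic lateral sclerosis. Poly-A RNA of the whole dissected cord was sequenced, and whether blood was washed out of the vessels before the cords were frozen is not given in the sources used here. The labels give no sex, and each replicate is treated as a separate mouse.

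The libraries held 30415643 to 38743628 counts. Plekhg5 stood at 19.4 to 25 CPM (counts scaled to the size of the library, with the TMM factors of edgeR) in the 6 Plekhg5+/+ libraries and at 3.28 to 4.72 CPM in the 6 Plekhg5-/- libraries. Human SOD1 stood at 4420 to 5640 CPM with the transgene and at 0.153 to 5.47 CPM without it. All 13 spinal cord markers in the list, among them Mbp of myelin, Snap25 of neurons and Chat of motor neurons, passed the filter on low counts. In whole tissue, fewer cells of a type and less RNA per cell cannot be told apart.

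The alpha copies lie close to each other on chromosome 11 and the beta copies on chromosome 7 (build GRCm38.p6, gene spans of the RefSeq annotation used for counting). Hba-a1 spans 32283672 to 32284486 and Hba-a2 spans 32296492 to 32297310, both on the plus strand. Hbb-bs spans 103826523 to 103827928 and Hbb-bt spans 103812524 to 103813923, both on the minus strand. Alas2 lies on chromosome X at 150547417 to 150570622 on the plus strand.

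The copies are so alike that short reads cannot always be assigned to 1 of them. The coding sequences of Hba-a1 and Hba-a2 were identical at 425 of 426 bases in the GENCODE transcripts, and the difference was C381T (Hba-a1 base, position counted from 1 at the start codon, Hba-a2 base). Those of Hbb-bs and Hbb-bt were identical at 440 of 441 bases, with C417T in the same notation. The 75 coding bases that end at the differing base are shown because a read has to cover it, or lie outside the coding part, to tell the copies apart. The capital marks the base that differs.
Hba-a1: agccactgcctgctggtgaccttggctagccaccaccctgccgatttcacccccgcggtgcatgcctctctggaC
Hba-a2: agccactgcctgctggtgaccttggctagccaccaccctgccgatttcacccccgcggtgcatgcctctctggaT
Hbb-bs: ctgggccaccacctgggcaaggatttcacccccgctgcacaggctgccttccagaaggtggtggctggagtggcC
Hbb-bt: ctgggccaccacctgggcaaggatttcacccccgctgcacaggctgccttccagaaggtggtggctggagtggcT

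Of the 75-base windows in the coding sequence, 86.9% were shared between the alpha copies and 93.2% between the beta copies, and none was shared between alpha and beta. Reads with several mapping places were split between them in the deposited table, so the counts of the copies were fractional in 9 or 10 of the 12 libraries, while those of Alas2 were whole in all 12. The division of counts between Hba-a1 and Hba-a2, or between Hbb-bs and Hbb-bt, is therefore uncertain, and the sum of the 4 haemoglobin genes does not depend on it.

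The promoters of the 5 genes are shown for the motifs they hold, and whether these bear on the levels in the cord was not tested. The sequences are the 150 bases before the annotated start on the gene's strand, from RefSeq on GRCm38.p6, at chr11:32283522-32283671 (Hba-a1), chr11:32296342-32296491 (Hba-a2), chr7:103827929-103828078 (Hbb-bs), chr7:103813924-103814073 (Hbb-bt) and chrX:150547267-150547416 (Alas2). Capitals mark matches, on either strand, to AGATAA, a motif of GATA factors, to CACCC, the box bound by Klf1 and its relatives, to CCAAT, a box found before many genes, and to TATAA, the core of the TATA box. The match on the opposite strand reads as the reverse complement, and in Hbb-bt a pair of matches on opposite strands touch.
Hba-a1: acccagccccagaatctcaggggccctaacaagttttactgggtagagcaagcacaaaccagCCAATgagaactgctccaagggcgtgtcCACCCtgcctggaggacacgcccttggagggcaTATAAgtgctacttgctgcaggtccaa
Hba-a2: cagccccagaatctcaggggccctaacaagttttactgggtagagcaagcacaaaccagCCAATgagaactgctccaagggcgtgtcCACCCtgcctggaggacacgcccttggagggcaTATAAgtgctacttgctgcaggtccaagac
Hbb-bs: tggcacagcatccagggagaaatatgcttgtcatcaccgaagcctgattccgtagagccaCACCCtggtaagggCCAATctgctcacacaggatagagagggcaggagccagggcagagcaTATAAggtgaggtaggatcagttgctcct
Hbb-bt: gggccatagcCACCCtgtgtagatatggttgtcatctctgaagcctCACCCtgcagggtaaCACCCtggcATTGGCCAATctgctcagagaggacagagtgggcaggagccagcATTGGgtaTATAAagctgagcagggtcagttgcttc
Alas2: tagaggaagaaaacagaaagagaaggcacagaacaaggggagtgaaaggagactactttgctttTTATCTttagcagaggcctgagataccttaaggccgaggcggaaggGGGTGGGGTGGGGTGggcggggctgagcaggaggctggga

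The 4 haemoglobin promoters each held the CACCC box, the CCAAT box and the TATAA letters, a combination found in 1.1% of 32851 promoter windows of the same length. Taken singly, the CACCC box was in 37.4% of windows, the CCAAT box in 24.5% and the TATAA letters in 14.2%. The Alas2 window held AGATAA on the opposite strand, which 5.65% of windows hold, and CACCC on the opposite strand 3 times. The alpha promoters were identical over all 147 bases compared once shifted by 3 bases, while the beta promoters matched at 106 of 149 bases (71.1%). These are letter matches only, and binding was not measured.

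The 4 haemoglobin transcripts were among the abundant mRNAs of the cord. Per kilobase of exon, Hbb-bs averaged 453.5 CPM and ranked 55 of the 20155 genes tested, Hba-a1 averaged 432.2 CPM (rank 60), Hba-a2 385.6 CPM (rank 68) and Hbb-bt 259.0 CPM (rank 126). Alas2 averaged 7.998 CPM per kilobase and ranked 7173. The 4 haemoglobin genes together took between 0.0562% and 0.2084% of a library's counts, and their summed CPM was 3.62-fold higher in the highest library than in the lowest.

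Hba-a1, an alpha chain gene, stood at 173.5, 308.4 and 211.0 CPM in the Plekhg5+/+ libraries (replicates 1 to 3) and at 185.3, 151.3 and 156.2 CPM in the Plekhg5-/- libraries. With the transgene it stood at 329.1, 242.3 and 541.4 CPM in Plekhg5+/+ mice and at 266.5, 183.5 and 150.6 CPM in Plekhg5-/- mice. The highest value was that of Plekhg5+/+ SOD1-G93A replicate 3, and the ranges of Plekhg5+/+ and Plekhg5-/- overlapped both with and without the transgene.

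Hba-a2, the other alpha copy, followed the same order of libraries. It stood at 155.8, 278.3 and 190.3 CPM in Plekhg5+/+, at 166.1, 135.0 and 142.4 CPM in Plekhg5-/-, at 290.0, 219.2 and 493.4 CPM in Plekhg5+/+ SOD1-G93A and at 236.3, 164.8 and 133.6 CPM in Plekhg5-/- SOD1-G93A. Here too the genotype ranges overlapped in each pair compared.

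Hbb-bs, the more abundant beta chain gene, stood at 229.7, 395.2 and 271.7 CPM in Plekhg5+/+ and at 216.2, 179.2 and 189.9 CPM in Plekhg5-/-. With the transgene the values were 365.2, 304.9 and 643.9 CPM in Plekhg5+/+ mice and 290.4, 208.7 and 182.2 CPM in Plekhg5-/- mice. Every Plekhg5-/- library was below every Plekhg5+/+ library of the same transgene status, by a narrow margin in each case.

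Hbb-bt, the other beta copy, stood at 129.1, 224.3 and 151.3 CPM in Plekhg5+/+ and at 119.7, 99.89 and 108.2 CPM in Plekhg5-/-. With the transgene it stood at 215.5, 172.2 and 360.4 CPM in Plekhg5+/+ mice and at 163.5, 116.7 and 97.42 CPM in Plekhg5-/- mice. As for Hbb-bs, the Plekhg5-/- values lay below the Plekhg5+/+ values on both backgrounds.

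Alas2, the red cell enzyme of haem synthesis, stood at 10.29, 22.35 and 16.29 CPM in Plekhg5+/+ and at 10.01, 9.159 and 11.42 CPM in Plekhg5-/-. With the transgene it stood at 23.51, 16.27 and 31.85 CPM in Plekhg5+/+ mice and at 19.8, 12.54 and 10.2 CPM in Plekhg5-/- mice. Its 2 highest libraries were Plekhg5+/+ SOD1-G93A replicates 3 and 1, and its genotype ranges overlapped.

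Summed over the 4 haemoglobin genes, the level was 906.2 ± 268.5 CPM in Plekhg5+/+, 616.4 ± 63.24 CPM in Plekhg5-/-, 1393 ± 575.1 CPM in Plekhg5+/+ SOD1-G93A and 731.4 ± 202.7 CPM in Plekhg5-/- SOD1-G93A (SD, n = 3 each). The order of the means was thus Plekhg5+/+ SOD1-G93A, Plekhg5+/+, Plekhg5-/- SOD1-G93A and Plekhg5-/-, and each neighbouring pair in that order had overlapping ranges. The Plekhg5-/- libraries without the transgene spread least and the Plekhg5+/+ SOD1-G93A libraries spread most.

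**Figure D1:**
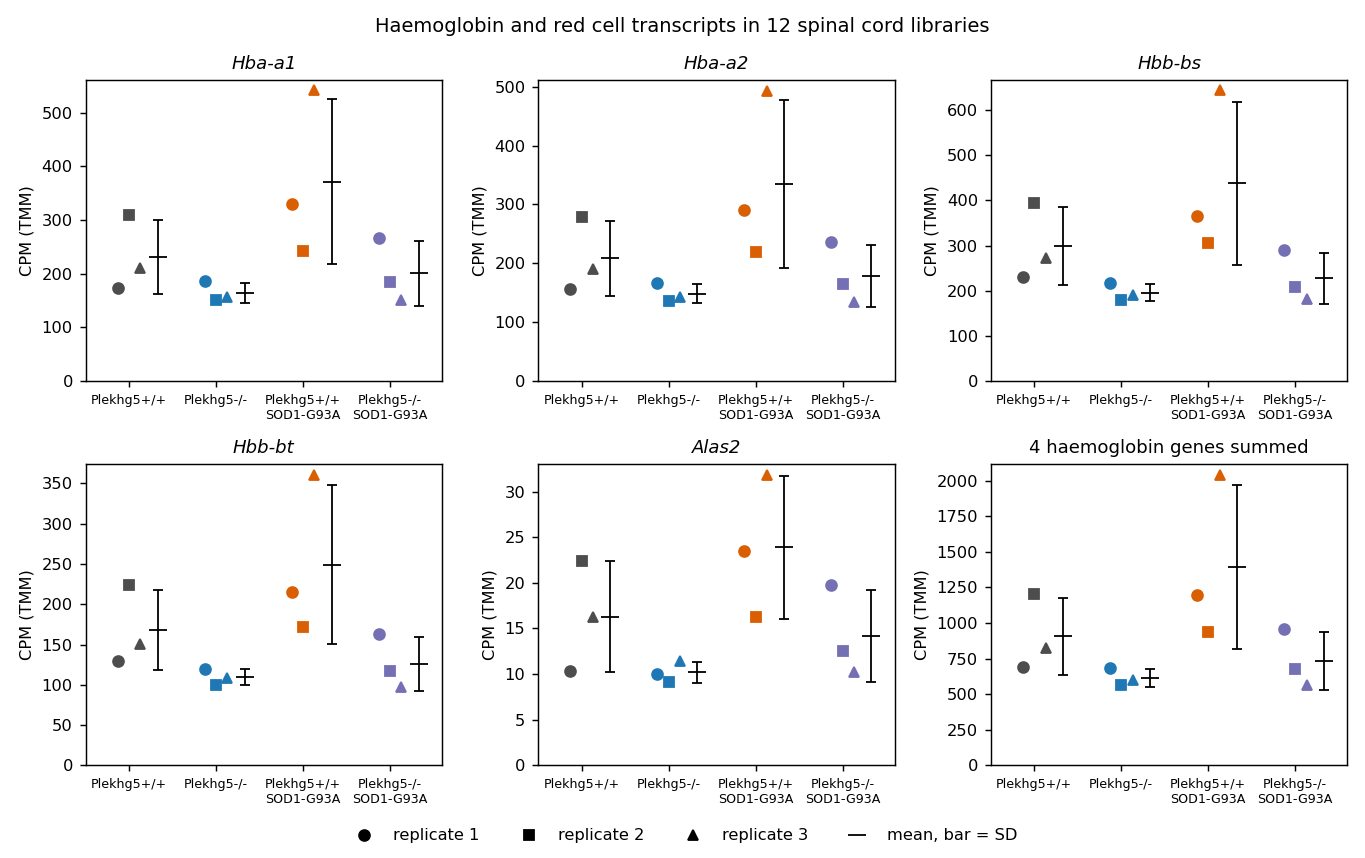
Level of each gene in CPM (linear axis from 0, TMM-scaled) in the 12 libraries, by genotype, with the marker shape giving the replicate; the bar beside each group is its mean and SD. Plekhg5+/+ SOD1-G93A replicate 3 is the highest library in all 6 panels, at 2039 CPM for the 4 haemoglobin genes summed.

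The spread between mice was large beside that of most genes. The biological coefficient of variation estimated by edgeR was 24.5% to 26.9% for the 5 members, above the value of 92.8% to 94.4% of the genes tested, whose median was 10.3%. Counting error was small next to it: it came to 0.68% to 1.74% for the haemoglobin genes and to 3.07% to 5.74% for Alas2, so depth did not limit these values.

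The effect of the transgene on spinal cord with intact Plekhg5 was the comparison with the most genes called by edgeR. None of the 5 members passed an adjusted p of 0.05 in it (edgeR quasi-likelihood test, Benjamini-Hochberg over all genes tested), where 2.47% of all genes did, and none passed with DESeq2 in any comparison. The fitted log2 fold changes were all positive and ran from 0.55 to 0.68, and 0 of the 5 had an unadjusted p under 0.05. For Hba-a1 the estimate was 0.68 with a standard error of 0.31, a 1.61-fold higher level with a 95% interval of 0.997 to 2.59 (edgeR adjusted p = 0.278). Without Plekhg5+/+ SOD1-G93A replicate 3 the estimate for Hba-a1 was 0.31 and that for Hbb-bs was 0.16 in place of 0.55. Without Plekhg5+/+ replicate 2, the control with the most haemoglobin, they were 0.95 and 0.80 and that for Alas2 was 0.85, with unadjusted edgeR p of 0.0173 to 0.028 for the 5 members. With Y-linked transcripts as a covariate the 5 estimates were 0.68 to 0.83, with unadjusted edgeR p of 0.00715 to 0.0166, and no adjusted p was under 0.05 in any of these fits. The corresponding effect in Plekhg5-/- mice ran from 0.20 to 0.47 on the log2 scale, again with no member past the threshold and 0 with an unadjusted p under 0.05 (edgeR adjusted p 0.95 to 0.955, against 0.00496% of all genes called).

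Loss of Plekhg5 in SOD1-G93A mice had the lowest values relative to its control for all 5 members. Hbb-bt was at 0.504 of its level in Plekhg5+/+ SOD1-G93A (95% interval 0.323 to 0.788) and Hbb-bs at 0.518 (0.333 to 0.808). Hba-a2 was at 0.533, Hba-a1 at 0.54 and Alas2 at 0.592. The intervals of all 5 lay below 1 before correction, with unadjusted p of 0.0064 to 0.0364 in edgeR, and 8.64% of all genes had an unadjusted p under 0.05. In this and every other comparison the 5 members are not independent, as the copies share split reads and the levels varied together. After correction over all genes none of the 5 passed (edgeR adjusted p 0.431 to 0.548), where 0.0347% of all genes did. The Plekhg5-/- values of Hbb-bs and Hbb-bt did not overlap the Plekhg5+/+ values, and groups did not overlap in either direction for 19.5% of all genes tested. Without Plekhg5+/+ SOD1-G93A replicate 3, the log2 estimates moved from -0.95 to -0.56 for Hbb-bs and from -0.76 to -0.49 for Alas2, and the unadjusted edgeR p was 0.0363 for Hbb-bs and 0.164 for Alas2. With Y-linked transcripts as a covariate the log2 estimates were -0.69 for Hba-a1, -0.78 for Hbb-bs and -0.56 for Alas2. Their unadjusted edgeR p were 0.0193, 0.00907 and 0.0457 in that fit.

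Loss of Plekhg5 without the transgene gave estimates of the same sign. They ran from -0.49 for Hba-a1 to -0.68 for Alas2, with adjusted p of 0.942 to 0.976 in edgeR and 0 unadjusted p under 0.05, and 0.0298% of all genes were called in this comparison. Hbb-bs was at 0.653 of its Plekhg5+/+ level (95% interval 0.42 to 1.02). Without Plekhg5+/+ replicate 2 the log2 estimates were smaller, at -0.23 for Hba-a1, -0.36 for Hbb-bs and -0.38 for Alas2, and with the Y-linked covariate that for Hba-a1 was -0.30. Without Plekhg5+/+ SOD1-G93A replicate 3, which enters through the shared estimate of spread, the unadjusted edgeR p was 0.0153 for Hbb-bs, 0.0204 for Hbb-bt and 0.049 for Alas2. Hbb-bs and Hbb-bt again had groups that did not overlap, as did 8.74% of all genes in either direction. The Plekhg5+/+ libraries serve as controls both here and for the transgene effect, and the Plekhg5+/+ SOD1-G93A libraries likewise enter 2 comparisons, so these estimates are not independent of each other.

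The interaction asks whether the loss of Plekhg5 acted differently with the transgene. It ran from -0.08 for Alas2 to -0.41 for Hba-a2 on the log2 scale, with intervals of -1.08 to 0.92 and -1.39 to 0.56, and no member passed, before or after correction (edgeR adjusted p 0.756 to 0.961, where 0% of all genes were called). Without Plekhg5+/+ SOD1-G93A replicate 3 the estimates were -0.022 for both Hba-a1 and Hba-a2, -0.0016 for Hbb-bt, 0.054 for Hbb-bs and 0.18 for Alas2. With 3 mice a group, the intervals leave room for a sizeable difference in either direction.

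Averaging the effect of Plekhg5 loss over both backgrounds was added after the values were seen. The log2 estimates were -0.80 for Hbb-bt, -0.78 for Hbb-bs, -0.72 for Alas2, -0.70 for Hba-a2 and -0.69 for Hba-a1. Only 0.248% of all genes had a smaller unadjusted p than Hbb-bt, whose p was 0.00262 in edgeR, yet its adjusted p and those of the other members were 0.987. All 5 members and 3.88% of all genes had an unadjusted p under 0.05, and 0.0546% of all genes were called after correction. The p-values of the 5 members are not independent of each other, so they do not count as 5 separate results. The averaged transgene effect, added in the same way, ran from 0.39 to 0.51 with edgeR adjusted p of 0.326 to 0.432, and 1.22% of all genes were called. Y-linked transcripts were found in 8 of the 12 libraries. Those without them were Plekhg5-/- replicate 2, Plekhg5+/+ SOD1-G93A replicate 2 and Plekhg5-/- SOD1-G93A replicates 2 and 3. Their haemoglobin sums (565.4, 938.6, 673.6 and 563.9 CPM) were each below those of the other libraries of the same genotype. Genotype and the presence of Y-linked transcripts therefore cannot be fully told apart. With these transcripts as a covariate the averaged estimate of Plekhg5 loss for Hbb-bs was -0.61 (edgeR adjusted p = 0.9998).

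**Figure D2:**
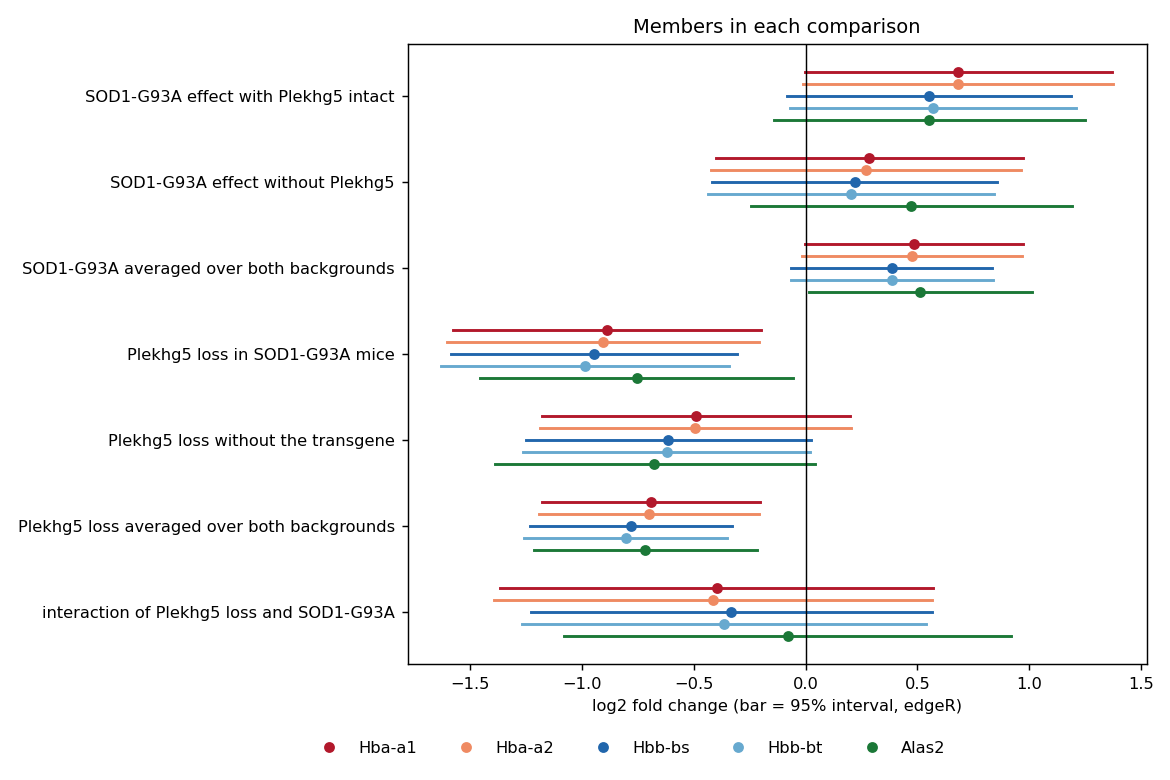
Fitted log2 fold change of each gene (point) with its 95% interval (bar) from edgeR, for 7 comparisons named on the vertical axis; the vertical line marks no change. The intervals for Plekhg5 loss in SOD1-G93A mice lie below 0 for all 5 genes, and none of the 35 estimates passed the adjusted threshold.

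The levels of the members varied together from mouse to mouse. Over the 12 libraries, Pearson's r between log2 CPM values was 0.988 for Hba-a1 with Hbb-bs, genes on different chromosomes that share no read-length window (Spearman's rho 0.958; permutation p = 1e-05 for r, the smallest that 100000 permutations can give, adjusted p = 2.37e-05 over 19 relations). For Hbb-bs with Alas2, r was 0.948 and rho was 0.895 (permutation p = 4e-05, adjusted p = 7.6e-05). Leaving out the 2 libraries farthest from the median gave r of 0.972 and 0.923 for these pairs, and removing the genotype means gave 0.991 and 0.908. The copies had r of 1.0 (Hba-a1 with Hba-a2) and 0.999 (Hbb-bs with Hbb-bt), and these pairs share reads that were split between them.

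Ratios within a library varied much less than the levels. Hba-a1 to Hba-a2, per kilobase, stayed between 1.10 and 1.14 over the 12 libraries, and Hbb-bs to Hbb-bt between 1.67 and 1.84. Reads that fit both copies were split between them, so the steadiness of these copy ratios is in part set by the counting. The haemoglobin genes to Alas2, per kilobase, lay between 164 and 233, a coefficient of variation of 11.8%. Alpha to beta, per kilobase, lay between 1.04 and 1.26. This ratio was 1.06 ± 0.0196 in Plekhg5+/+, 1.16 ± 0.0254 in Plekhg5-/-, 1.16 ± 0.0567 in Plekhg5+/+ SOD1-G93A and 1.21 ± 0.0517 in Plekhg5-/- SOD1-G93A (SD, n = 3 each). The Plekhg5+/+ libraries were the 3 lowest of the 12, and their range overlapped neither that of Plekhg5-/- nor that of Plekhg5+/+ SOD1-G93A. The two-sided exact permutation p was 0.1 for both of these comparisons, the smallest that 3 against 3 allows, and 0.8 after adjustment over the 16 ratio comparisons made.

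Among the other genes tested, none had an r above 0.9 with the summed haemoglobin level over the 12 libraries, and the median gene had 0.00568. The 5 members had 0.959 to 0.998, but the haemoglobin genes among them are part of the sum, so their high r was built in. Alas2, the member outside the sum, had the lowest of these, 0.959. In the negative direction C130046K22Rik reached -0.95, close to Alas2 in size. The 10 most alike were Mcmbp (0.858), Dhx37 (0.845), Adora3 (0.831), Eftud2 (0.822), Ttll3 (0.816), Gm11954 (0.815), Cpne2 (0.808), Ube2l6 (0.805), Tmem120b (0.782) and 1700037C18Rik (0.78). Of these only Ube2l6, a ubiquitin conjugating enzyme, was also in a list of red cell genes. Several moved within a narrow range, such as Eftud2, a splicing factor, at 66.0 to 71.0 CPM. These are descriptions over 12 libraries that differ in genotype and depth, and differences between genotypes enter these r values.

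The other globins did not share the pattern of the members. Cygb, the cytoglobin gene of connective and neural tissue, averaged 94.1 CPM and stood at 85.5 CPM in its lowest library (r = -0.498 with haemoglobin over 12 libraries), and Ngb, the neuronal globin, at 5.79 to 9.95 CPM (r = 0.221). The embryonic globin genes Hba-x, Hbb-y, Hbb-bh1 and Hbb-bh2 reached at most 2 counts in any library. Of 13 other globin symbols listed, 9 had a row in the table and 5 were tested, and none was called in any comparison.

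Haem synthesis beyond Alas2 did not move with haemoglobin to the same degree. Alas1, the form of the first enzyme found in other tissues, stood at 42.8 to 49.9 CPM with r = 0.463, and Urod, Fech and Cpox, the most abundant enzymes of the pathway per kilobase, had r of 0.149, 0.319 and 0.284. None of the 9 was called in any of the comparisons. For Alas1 the effect of Plekhg5 loss in SOD1-G93A mice was -0.06 on the log2 scale (95% interval -0.19 to 0.07), against -0.76 for Alas2.

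Other red cell genes, among them those of nucleated precursors, mostly had a different leading library from the globins. Of the 25 other red cell genes tested, 17 were highest in Plekhg5+/+ SOD1-G93A replicate 1 and 1 in replicate 3, the library in which all 5 members peaked. The share of all genes tested that were highest in Plekhg5+/+ SOD1-G93A replicate 1, or in any other library, was not counted. Slc4a1, the anion exchanger of the red cell membrane, stood at 20.6 CPM in that replicate 1 and at 7.02 CPM in replicate 3, against 4.49 CPM in replicate 2. In the Plekhg5-/- SOD1-G93A libraries it stood at 13.8 CPM in replicate 1 and at 3.16 and 3.57 CPM in the others, and in the 6 libraries without the transgene at 1.74 to 3.69 CPM. Its r with haemoglobin was 0.579, and Plekhg5+/+ replicate 2, the library with the second highest haemoglobin sum at 1206 CPM, had Slc4a1 at 3.27 CPM.

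Hemgn, a nuclear protein of blood precursors, had the same 2 leading libraries. It was at 3.11 CPM in Plekhg5+/+ SOD1-G93A replicate 1, at 2.1 CPM in Plekhg5-/- SOD1-G93A replicate 1 and at 0.145 to 0.6 CPM elsewhere. Gata1, the transcription factor of red cell and megakaryocyte development, was at 0.932 and 0.678 CPM in them, at most 0.21 CPM elsewhere, and had too few counts to be tested. These genes were singled out after their values were seen.

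None of the 25 was called in any comparison. In the transgene comparison with Plekhg5 intact, 22 of the 25 had positive estimates, as had 49.7% of all genes, the median was 0.678 on the log2 scale and 14 had an unadjusted p under 0.05, against 18.2% of all genes tested. For Plekhg5 loss in SOD1-G93A mice, 21 of the 25 were negative, as were 52.5% of all genes, with a median of -0.437, against -0.907 for the 5 members. For Plekhg5 loss without the transgene, 15 were positive, as were 52.0% of all genes, and the median was 0.0868, whereas all 5 members were negative with a median of -0.615. Several genes of the list have wide expression outside red cells, among them Bpgm and Bnip3l, the 2 most abundant of it per kilobase, which had r of 0.432 and 0.196 with haemoglobin. Some led by little, such as Tspan33, at 21.3 CPM in Plekhg5+/+ SOD1-G93A replicate 1 and 21.2 CPM in Plekhg5-/- replicate 2. Tspan33 was named after its values were seen.

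**Figure D3:**
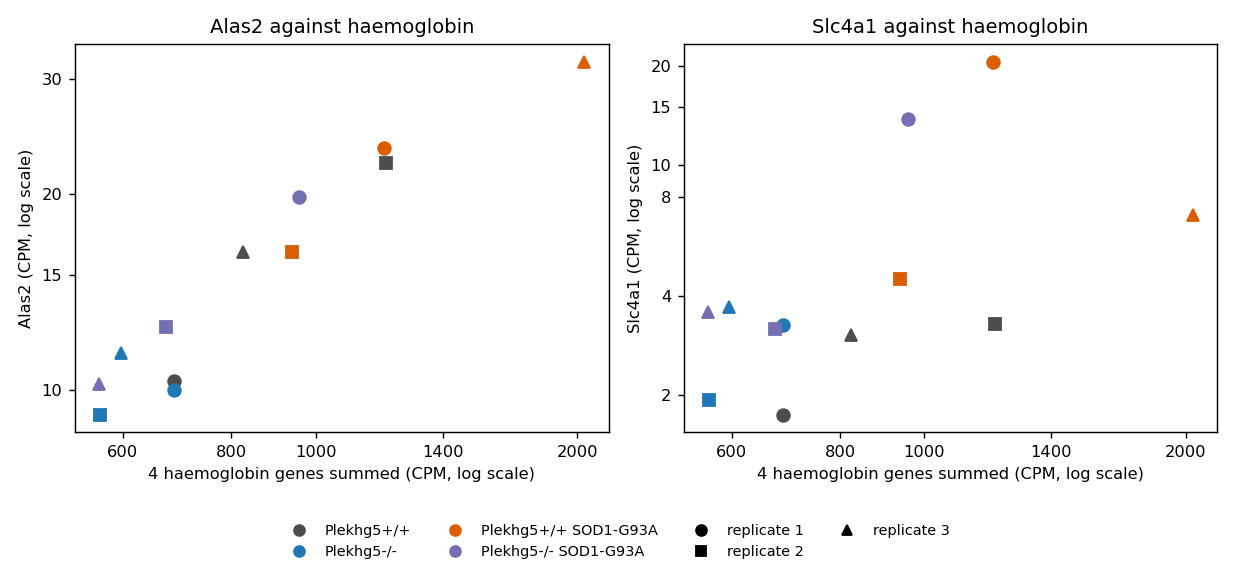
CPM of Alas2 (left) and Slc4a1 (right) against the 4 haemoglobin genes summed in the 12 libraries, all axes on a log scale; colour gives the genotype and marker shape the replicate. Over the 12 libraries Alas2 rises with haemoglobin (r = 0.959). Within Plekhg5-/- the order differs: replicate 1 has 687.2 CPM of haemoglobin and 10.01 CPM of Alas2, replicate 3 has 596.7 and 11.42 CPM. The Slc4a1 values of 20.6 and 13.8 CPM in replicate 1 of the SOD1-G93A genotypes stand above libraries with as much haemoglobin.

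The separation between the globins and the precursor genes is also visible when the lists are set side by side by library. All 5 members were highest in Plekhg5+/+ SOD1-G93A replicate 3, most of the other red cell and platelet genes in replicate 1 of that genotype, and most neutrophil genes in replicate 1 of Plekhg5-/- SOD1-G93A. Whether the precursor, platelet and neutrophil transcripts came from blood, marrow or the cord itself was not tested, nor was their part in the haemoglobin values.

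**Figure D4:**
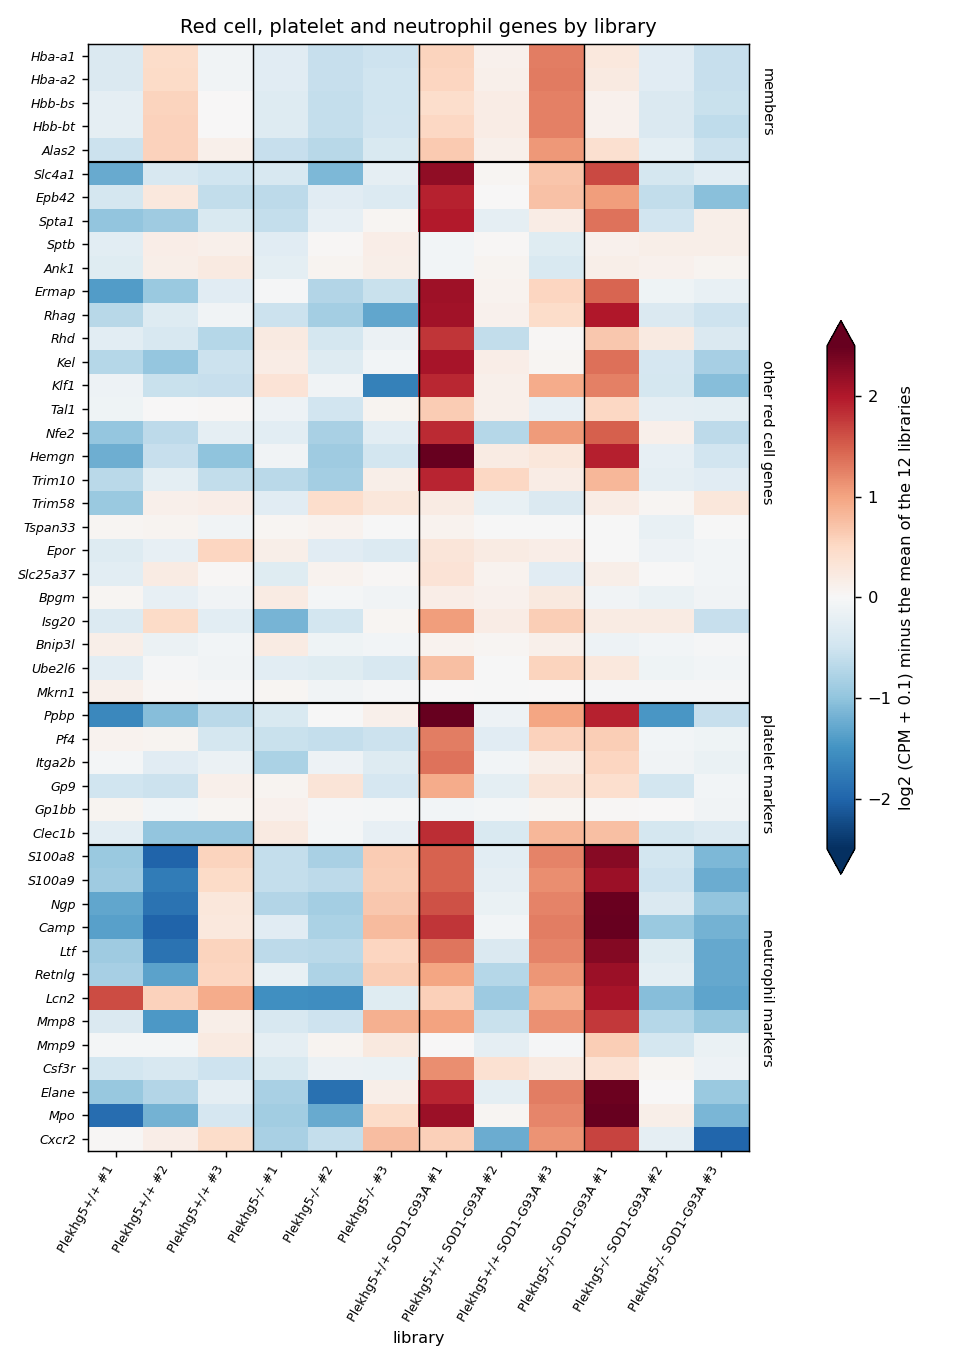
Level of each gene (row) in each library (column), as log2 of CPM plus 0.1 minus the mean of that gene over the 12 libraries; red is above and blue below that mean, and the colours saturate at the ends of the scale. The 5 members form the top block, other red cell genes the next, then 6 platelet and 13 neutrophil markers.

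Of 16 genes tested that take up and break down haemoglobin, haem and iron, 2 were called in the transgene comparison with Plekhg5 intact, where 2.47% of all genes were. Slc11a1, a metal transporter of phagocytes, rose by 1.99 on the log2 scale (SE 0.324, edgeR adjusted p = 0.0144), and Ftl1, the ferritin light chain, rose by 0.57 (SE 0.125, edgeR adjusted p = 0.0351). Slc11a1 stood at 19.0, 7.87 and 7.2 CPM in the Plekhg5+/+ SOD1-G93A libraries and at 2.63 to 2.99 CPM in Plekhg5+/+, so replicate 1, which also led in precursor and platelet genes, had the highest value. Without that library the estimate was 1.39 for Slc11a1 (edgeR adjusted p = 0.00132) and 0.40 for Ftl1 (edgeR adjusted p = 0.108). The other 14 of the 16 were not called. Among the 12 fits that omit 1 library, Slc11a1 was still called in 10, the exceptions being those without Plekhg5+/+ replicate 1 or 2, and Ftl1 in 6, and the highest adjusted p over all alternatives was 0.0955 and 0.162. Hmox1, haem oxygenase, stood at 23.7 CPM in Plekhg5+/+ SOD1-G93A replicate 1 and at 5.49 to 10.4 CPM in the other libraries, so its highest library was again not that of haemoglobin (r = 0.628). Fth1, the ferritin heavy chain, and Trf, transferrin, the most abundant of the list per kilobase, had r of 0.513 and 0.527. Cd163, the macrophage receptor for haemoglobin bound to haptoglobin, had r = 0.086, and Hp, haptoglobin, r = 0.301. Hmox1, Cd163 and Hp, like Alas1 among the haem enzymes, were named after their values were seen.

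**Figure D5:**
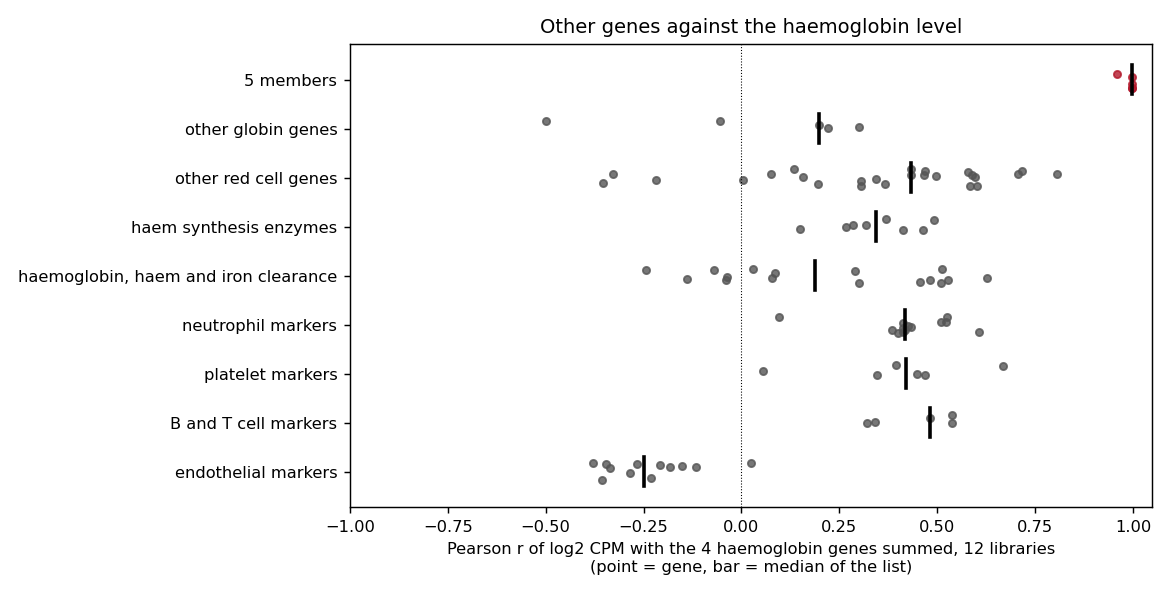
Pearson's r over 12 libraries between log2 CPM of each gene (point) and the 4 haemoglobin genes summed, by list, with the median of each list as a bar. The 5 members lie at 0.959 to 0.998, and the genes of the 8 other lists plotted, which leave out the spinal cord markers, between -0.498 and 0.805; the 4 haemoglobin genes are part of the sum they are compared with.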

How the data were processed

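The deposited table held estimated counts, made by the authors: reads of 75 bases were trimmed with cutadapt 2.4, aligned with STAR 2.7.2b to GRCm38.p6 plus the human SOD1 cDNA, and counted on the reverse strand with featureCounts 1.6.4 over RefSeq exons, with multimapping and overlapping reads split as fractions. All 12 columns of counts were mapped to samples by their labels. Counts were rounded, filtered with filterByExpr and fitted with edgeR 4.0.16 (R 4.3.3; robust quasi-likelihood, TMM, genotype as the only term, all 12 libraries), with Benjamini-Hochberg adjustment over 20155 genes and a threshold of 0.05. The script was tested on simulated data. Log2 CPM used a prior count of 2. DESeq2 1.42.0 was an alternative.

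The members, gene lists and tests were chosen with earlier results of these data known. Named genes were the 5 members, Plekhg5 and human SOD1, the 3 most abundant genes per kilobase of each list with those called in it, and the 10 genes most like haemoglobin. Others are said to have been chosen after their values were seen. Listed symbols without a row, including Hbb-b1, Hbb-b2 and Ahsp, were not analysed here, and some genes that the rule names are not reported here. The p-values of the main edgeR fit rest on the spread between mice of the same genotype, estimated over all 12 libraries together. Those of the correlations come from permuting the 12 libraries, and those of the ratios from permuting 3 against 3. Coding sequences came from GENCODE M21 transcripts.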

Additional observations from a re-analysis of the deposited data

How the results depend on the processing

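No member passed the adjusted threshold of 0.05 in any of the 7 comparisons under any of the 19 to 21 settings run for each, DESeq2 included. The lowest adjusted p was 0.102 for the transgene with Plekhg5 intact, 0.76 for it without Plekhg5, 0.141 for Plekhg5 loss with the transgene, 0.608 without it, 0.552 for the interaction, 0.311 for averaged Plekhg5 loss and 0.0868 for the averaged transgene effect, the last with Y-linked transcripts as a covariate. Signs changed only when a library was left out: the log2 interaction ran from -0.38 to 0.18 for Alas2 and from -0.59 to 0.054 for Hbb-bs, and the transgene effect without Plekhg5 from -0.027 to 0.35 for Hbb-bt. With replicate number as a block, Plekhg5 loss in SOD1-G93A mice was -0.93 for Hbb-bs (edgeR adjusted p = 0.479). Same-numbered libraries had correlations of -0.165 to 0.318 in their deviations (median 0.00511). Libraries with different numbers had correlations of -0.334 to 0.284 (median -0.0346). These ranges overlap, so the correlations cannot tell whether the numbers pair the libraries, and shared handling by replicate number was not tested.

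The count of all genes past the threshold, against which the members are read, depended more on the setting. For the transgene with Plekhg5 intact it was 498, with DESeq2 1172, with DESeq2 and its prior 1198, with only the genotypes compared 3, and 2 (without Plekhg5+/+ replicate 2) to 771 (without Plekhg5+/+ SOD1-G93A replicate 2) leaving out a library. Without Plekhg5 it was 1, with DESeq2 44, with its prior 42, with at least 10 counts in every library 0, with only the genotypes compared 20, and 1 to 9 leaving out a library. For Plekhg5 loss in SOD1-G93A mice it was 7, with DESeq2 71, with its prior 114, with only the genotypes compared 11, and 4 to 8 leaving out a library. For Plekhg5 loss without the transgene it was 6, with DESeq2 36, with its prior 35, and 5 to 59 (without Plekhg5+/+ replicate 3). The interaction gave 0, with DESeq2 102, with no filter 1, and 0 to 40 (without Plekhg5+/+ replicate 3). Averaged Plekhg5 loss gave 11 and with DESeq2 18. The averaged transgene effect gave 245, with DESeq2 826, with the replicate block 417, with the Y-linked covariate 412, and 10 (without Plekhg5+/+ replicate 2) to 560 (without Plekhg5+/+ SOD1-G93A replicate 2). The cause was not tested.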

Other observations

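Other blood cell genes had leading libraries of their own. Of the 13 neutrophil markers, 12 were highest in Plekhg5-/- SOD1-G93A replicate 1, among them Ngp, a granule protein of marrow neutrophils, at 58.8 CPM there, at 31.6 CPM in Plekhg5+/+ SOD1-G93A replicate 1, at 25 CPM in its replicate 3 and at 2.83 to 16.7 CPM in the rest. Plekhg5+/+ replicate 2, with the second highest haemoglobin sum, had the lowest Ngp value. S100a9 and S100a8, the most abundant of the list per kilobase, spread likewise, from 5.57 to 84.5 and from 2.49 to 49.6 CPM. Csf3r, the receptor of a neutrophil growth factor, was the member of that list called in the transgene comparison with Plekhg5 intact (log2 fold change 1.11, edgeR adjusted p = 0.0198). Of the 6 platelet markers tested, 5 were highest in Plekhg5+/+ SOD1-G93A replicate 1, with Ppbp, a platelet chemokine, at 8.79 CPM there, at 4.41 CPM in Plekhg5-/- SOD1-G93A replicate 1 and at 0.29 to 2.25 CPM elsewhere. Cd79b, a subunit of the B cell receptor, rose in the same comparison (1.84, edgeR adjusted p = 0.0366), as did Gfap, the filament of reactive astrocytes (1.23, edgeR adjusted p = 0.0198). With each library left out in turn, Csf3r and Gfap were called in 10 of 12 fits, not without Plekhg5+/+ replicate 1 or 2, and Cd79b in 5. All of these were highest in Plekhg5+/+ SOD1-G93A replicate 1, the library that led in precursor and platelet genes: Csf3r stood at 31.7 CPM there and at 18.5 and 16.6 CPM in the others of its genotype, and Cd79b at 1.49 CPM against 0.627 and 0.96 CPM. Without it the estimates were 0.77 for Csf3r (edgeR adjusted p = 0.014), 0.91 for Gfap (0.0122) and 1.48 for Cd79b (0.15). Ngp was named after its values were seen.

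Genes of the vessel wall did not follow haemoglobin. The 12 endothelial markers had a median r of -0.248 with the haemoglobin sum, and their summed level ran from 230 to 249 CPM in Plekhg5+/+, from 159 to 256 CPM in Plekhg5-/-, from 177 to 208 CPM in Plekhg5+/+ SOD1-G93A and from 234 to 309 CPM in Plekhg5-/- SOD1-G93A. For Plekhg5 loss in SOD1-G93A mice all 12 had positive estimates, as had 47.5% of all genes, with a median of 0.482 on the log2 scale and none was called by edgeR (9 had an unadjusted p under 0.05, as had 8.64% of all genes), while the 5 haemoglobin and red cell genes were negative. Of the 12, 9 were highest in Plekhg5-/- SOD1-G93A replicate 1, the library that led in neutrophil genes. Estimates for this list without that library are not reported here. Ly6c1, a surface protein of endothelium, was the 1 endothelial marker called in the transgene comparison with Plekhg5 intact (-0.56, edgeR adjusted p = 0.0361, and called in 6 of the 12 fits that leave out a library). The lowest r of any gene tested with haemoglobin was -0.95 for C130046K22Rik, which stood at 9.03 to 12.6 CPM and was singled out after its value was seen.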
